A study of Homo sapiens with 23 samples.

Results

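The genes described here are NFE2L2, which encodes the transcription factor NRF2, 6 of its target genes (NQO1, HMOX1, GCLM, SLC7A11, TXNRD1 and SRXN1) and 3 aldo-keto reductases (AKR1C1, AKR1C2 and AKR1C3). They were chosen by name, as the rows of the expression table that carry their NCBI Gene IDs, and all 10 were found among the 21658 genes of the table. RNA was sequenced from 4 established human ovarian cancer cell lines, OV-90, Kuramochi, OVSAHO and EFO-21, each as parental cells and as cells made resistant to prexasertib, an inhibitor of the checkpoint kinase CHK1, by long-term escalation of the drug. Each group had 3 libraries, except parental OV-90 with 2, which gave 11 parental and 12 resistant libraries of 23 in all. The labels call the libraries of a group biological replicates. Whether a resistant line was derived more than once, or cloned, is not given in the sources used here, so that a difference describes these cultures.

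NRF2 is held at a low level by KEAP1, an adaptor that hands it to a ubiquitin ligase. Oxidants and electrophiles disable KEAP1, and NRF2 then enters the nucleus, pairs with a small MAF protein and switches on genes that carry antioxidant response elements. Its targets make and recycle glutathione and thioredoxin, supply NADPH, break down haem, and reduce or export reactive compounds. AKR1C1, AKR1C2 and AKR1C3 are NADPH-dependent reductases of steroids, prostaglandins and carbonyl compounds, and in many tumour lines they are among the genes that follow NRF2 most closely. Much of NRF2 control acts on the protein, which these RNA data do not show.

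The core of an antioxidant response element can be written TGACNNNGC. In the 1000 bases before the canonical start of each gene (GRCh37, GENCODE annotation), this core was present on either strand for 3 of the 10 genes. It was present before 33.0% of 15740 protein-coding genes of the table, so that its presence in such a window does not set these genes apart. The 3 matches are shown because they belong to genes whose levels are compared here, with the core in capitals and each written 5′ to 3′ on the strand that carries it.
NQO1, chr16:69760900-69760928, minus strand: gcagtcacagTGACTCAGCagaatctgag
GCLM, chr1:94375002-94375030, plus strand: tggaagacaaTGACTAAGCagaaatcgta
TXNRD1, chr12:104609448-104609476, plus strand: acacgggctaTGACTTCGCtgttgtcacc
The NQO1 match lay 447 to 455 bases before the start, that of TXNRD1 91 to 99 bases and that of GCLM 26 to 34 bases, the last on the strand opposite to the gene. The NQO1 match also holds TGACTCA, the sequence bound by AP-1 factors, and cores that hold it occurred in 1.29% of all windows.

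The AKR1C genes lie side by side on chromosome 10 and have closely similar sequences. The coding sequences of AKR1C1 and AKR1C2, each of 969 bases, differed at 19 bases (98.0% identity), while AKR1C3 differed from AKR1C1 at 83 bases (91.4%) and from AKR1C2 at 87 bases (91.0%). A stretch of 90 coding bases, from coding base 73 to 162, is printed because it holds 10 of the 19 differences between AKR1C1 and AKR1C2, with capitals at the 19 positions where the 3 genes are not all alike.
AKR1C1, plus strand, chr10:5005709-5005720 joined to chr10:5008106-5008183: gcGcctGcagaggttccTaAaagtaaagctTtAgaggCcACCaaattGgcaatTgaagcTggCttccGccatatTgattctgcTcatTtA
AKR1C2, minus strand, chr10:5045944-5045955 joined to chr10:5043796-5043873: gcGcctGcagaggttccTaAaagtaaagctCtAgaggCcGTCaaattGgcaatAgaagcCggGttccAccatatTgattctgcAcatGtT
AKR1C3, plus strand, chr10:5136709-5136720 joined to chr10:5138602-5138679: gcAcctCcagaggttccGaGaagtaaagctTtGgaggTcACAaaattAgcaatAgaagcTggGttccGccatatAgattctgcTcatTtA
Reads were 150 bases long, and 38 of the 820 windows of that length in the AKR1C1 coding sequence were identical in AKR1C2 at the same place. Between AKR1C2 and AKR1C3 the number was 22, and between AKR1C1 and AKR1C3 it was 0. A read from such a window cannot be assigned by its own sequence, although the other read of its pair may differ between the genes. How reads that match several of these genes were treated is not stated. Part of the values of AKR1C1 and AKR1C2, and of AKR1C2 and AKR1C3, could therefore be shared.

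All values below are log2 expression values as deposited, quantile normalised over the libraries, so that 1 unit is a 2-fold difference. They are not corrected for gene length, and levels are compared only between samples of the same gene. The lowest 10% of the values of a library reached up to between 1.70 and 1.87, and a difference from a group that lies in that range is not a measured fold change. A gene is said to have risen, fallen or differed by the test where its fold was at least 2 and its adjusted p below 0.05 (limma, Benjamini-Hochberg over all genes). The mean of 11 reference genes was lower in resistant cells by 0.16 in OV-90, 0.01 in Kuramochi, 0.11 in OVSAHO and 0.12 in EFO-21, and recentring on these genes adds that amount to every change in the line. The table gives no read counts, so the depth behind a value is unknown, and values rest on between 3 exons (SRXN1) and 52 exons (TXNRD1) as the table lists them. The 2 parental OV-90 libraries were less alike than those of any other group, with a correlation over genes of 0.952 against at least 0.971 elsewhere. They lay 1.14 apart for TXNRD1, 0.90 for HMOX1, 0.73 for SRXN1 and 0.71 for NFE2L2, and between 0.015 and 0.32 apart for the other members. As a check of the cell type, the epithelial genes KRT8 and KRT18 had group means between 8.77 and 12.31 in the 8 groups, while PAX8, a marker of ovarian serous cells, was near the bottom in parental OV-90 (2.10) and WT1, another, in parental OV-90 (1.87) and EFO-21 (1.03). The other epithelial markers of that list were not high in every group. Group means ranged from 2.69 to 12.3 for EPCAM, 3.32 to 13.22 for KRT19, 1.94 to 11.40 for KRT7 and 0.16 to 6.86 for MUC16. Of 4 endothelial markers PECAM1 and CDH5 were at 8.48 and 9.11 in parental EFO-21, and VWF and KDR at 3.65 and 2.75.

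The parental lines differed widely in these genes. Parental OV-90 stood above the other 3 lines in AKR1C1, AKR1C2, NQO1 and SRXN1, and parental OVSAHO was lowest in NFE2L2, NQO1, GCLM, SLC7A11, TXNRD1 and AKR1C3. Of the 10 genes, 6 differed by the test between parental OV-90 and Kuramochi, where 47% of all genes did. The number was 8 between OV-90 and OVSAHO (48.1% of all genes), and all 8 were higher in OV-90. It was 6 between OV-90 and EFO-21 (50.2% of all genes), 6 between Kuramochi and OVSAHO (37.6%), 3 between Kuramochi and EFO-21 (41.3%) and 5 between OVSAHO and EFO-21 (44.2%). All 6 of Kuramochi were higher than in OVSAHO, and all 3 and all 5 of the last pairs were higher in EFO-21. Between the lines many genes differ, and of these counts those of OV-90 and Kuramochi against OVSAHO are the furthest above the share of all genes. Since the genes were chosen with earlier results of these data known, that distance is not a test.

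AKR1C1 showed the widest gap of the 10 genes between parental lines. AKR1C1 (NCBI Gene ID 1645, chromosome 10 from 5005445 to 5025475, plus strand) encodes a reductase that inactivates progesterone. Its values were 12.79 and 12.88 in the parental OV-90 libraries, against 2.20, 2.68 and 3.71 in Kuramochi, 3.17, 3.75 and 3.95 in OVSAHO and 3.76, 3.86 and 4.09 in EFO-21. OV-90 was thus apart from every library of the other lines, which lay low in their own range. The log2 difference of parental OV-90 was 9.97 from Kuramochi (SE 0.39, adjusted p = 1.07e-08, limma), 9.21 from OVSAHO (adjusted p = 1.69e-08) and 8.93 from EFO-21 (adjusted p = 2.21e-08). Parental Kuramochi was below EFO-21 by the test (log2 difference -1.04, adjusted p = 0.0221), a call that was lost on recentring and without parental library 4, 5 or 12, while the pairs of OVSAHO with Kuramochi and EFO-21 did not pass it.

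With resistance, AKR1C1 fell in OV-90, OVSAHO and EFO-21 and rose in Kuramochi. In resistant OV-90 the libraries were at 11.05, 11.08 and 11.13, all below the parental libraries, a log2 change of -1.75 (SE 0.06, adjusted p = 0.00287), or 3.35-fold lower. In resistant Kuramochi they were at 5.03, 5.39 and 5.66, all above the parental libraries, a change of 2.50 (SE 0.42, adjusted p = 0.00370). Both calls were held when any 1 library of the line was left out. Resistant OVSAHO was at 1.80, 2.08 and 2.47, with 1 of the 3 libraries in the lowest 10% of values (change -1.50, SE 0.28, adjusted p = 0.0109), and this call too was held without any 1 library. Resistant EFO-21 was at 2.79, 2.845 and 3.07 (change -1.002, SE 0.17, adjusted p = 0.00464). That change sits at the 2-fold limit, and it was under 2-fold without parental library 12 (-0.91), without resistant library 22 (-0.97) or 23 (-0.94), and when libraries were recentred on reference genes (-0.88). Groups did not overlap in any of the 4 lines. Even after its fall, AKR1C1 in resistant OV-90 was far above its level in every library of the other lines, parental or resistant.

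AKR1C2 (NCBI Gene ID 1646, chromosome 10 from 5029967 to 5060223, minus strand) encodes a reductase that inactivates dihydrotestosterone, and followed AKR1C1 in OV-90. Its parental OV-90 libraries were at 11.90 and 11.91 and its resistant ones at 9.98, 10.06 and 10.13, a log2 change of -1.85 (SE 0.07, adjusted p = 0.00287), held without any 1 library. The other parental lines lay between 2.41 and 3.72, and OV-90 was above them by 9.02 (Kuramochi), 8.93 (OVSAHO) and 8.46 (EFO-21), with adjusted p-values of 7.94e-09, 7.68e-09 and 1.17e-08 from limma. In OVSAHO, AKR1C2 went from 2.87, 2.99 and 3.07 to 1.08, 1.20 and 1.58, all 3 in the lowest 10% of their libraries, so that the fall (-1.69, adjusted p = 0.00188) is not a measured fold change. In EFO-21 it went from 3.18, 3.43 and 3.72 to 2.17, 2.25 and 2.89 (-1.005, SE 0.26, adjusted p = 0.0219). This call was lost without parental library 10 or 11 or resistant library 22 or 23 (adjusted p between 0.0589 and 0.0685), and on recentring the change was under 2-fold (-0.88). In Kuramochi the resistant libraries, at 3.47, 3.84 and 3.84, overlapped the parental ones, at 2.41, 2.57 and 3.66, and the change of 0.84 did not pass the test (adjusted p = 0.109). Without parental library 6 it did (1.23, adjusted p = 0.0113).

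AKR1C3 (NCBI Gene ID 8644, chromosome 10 from 5077546 to 5149878, plus strand) encodes a reductase that makes testosterone and prostaglandin F2 alpha, and its order among the lines was different. Parental EFO-21 (8.03, 8.17 and 8.26) and OV-90 (7.95 and 8.27) were close, Kuramochi was at 6.92, 7.31 and 7.39, and OVSAHO at 2.82, 2.91 and 3.09. OVSAHO was lower than each of the other 3, by 5.16 against OV-90, 4.26 against Kuramochi and 5.21 against EFO-21 (limma adjusted p = 3.19e-09, 8.87e-09 and 1.48e-09), and the other pairs were under 2-fold apart. In resistant OV-90 the libraries fell to 5.21, 5.29 and 5.50, a change of -2.78 (SE 0.16, adjusted p = 0.00424), or 6.85-fold lower and the largest fall of the 10 genes in any line. In resistant Kuramochi they rose to 9.02, 9.06 and 9.20, a change of 1.89 (SE 0.13, adjusted p = 0.000120). Both calls were held when any 1 library of the line was left out. The EFO-21 change was -0.75 (SE 0.11, adjusted p = 0.00230), past the adjusted p and under 2-fold, with resistant libraries at 7.21, 7.46 and 7.56. In OVSAHO resistant (2.66 to 3.11) and parental libraries overlapped.

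**Figure D1:**
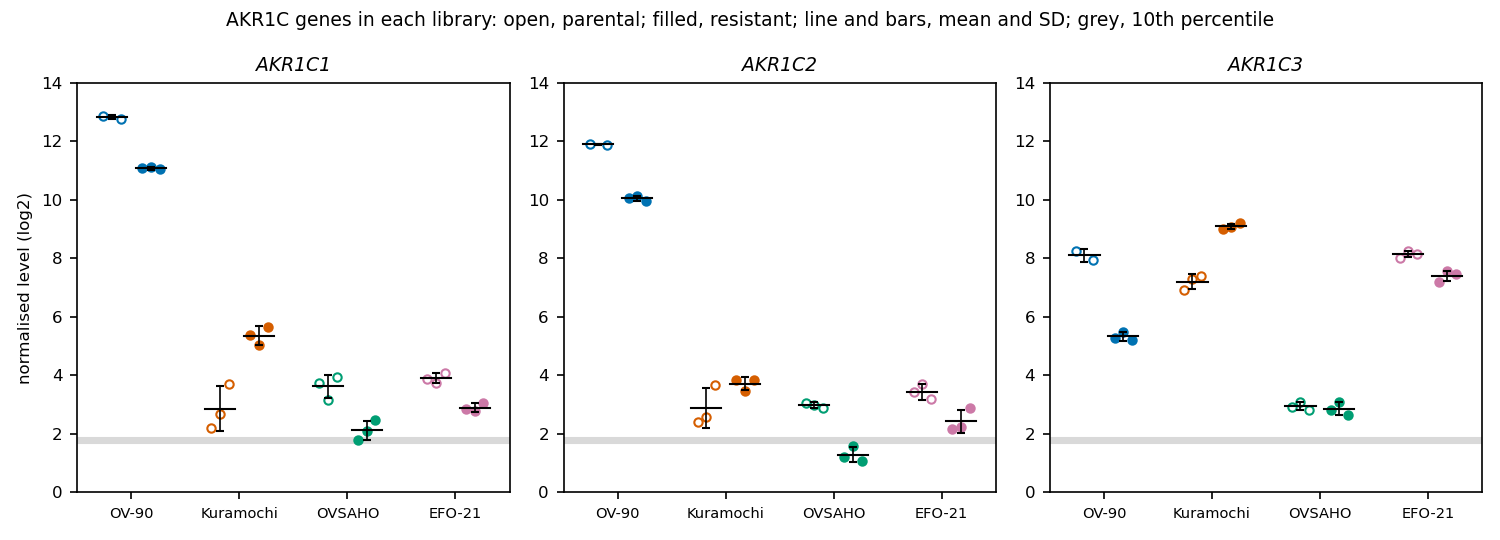
Log2 expression of AKR1C1, AKR1C2 and AKR1C3 in each library, with parental libraries as open and resistant libraries as filled points, by cell line on the x axis; lines and bars are the group mean and SD, and the grey band is the range of the 10th percentile of a library. OV-90 stands above the other lines in AKR1C1 and AKR1C2, all 3 genes are lower in resistant OV-90, and AKR1C1 and AKR1C3 are higher in resistant Kuramochi.

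NFE2L2 (NCBI Gene ID 4780, chromosome 2 from 178083395 to 178257484, minus strand) did not pass the test with a 2-fold change in any line. Parental libraries were at 8.70 and 9.42 in OV-90, between 8.9995 and 9.28 in Kuramochi, between 8.85 and 9.03 in EFO-21, and between 7.90 and 8.17 in OVSAHO. OVSAHO was the lowest line, below OV-90 by 1.02 (adjusted p = 0.000555) and Kuramochi by 1.09 (adjusted p = 0.000194), and the OV-90 difference was under 2-fold without parental library 3 (0.67) or 8 (0.96) and on recentring (0.72). Resistant OV-90 was at 9.91, 10.06 and 10.08, all above its parental libraries, with a change of 0.96 (SE 0.22, adjusted p = 0.0343), just under 2-fold. The size of that difference rests on which parental library is used, since it was 1.32 without library 3 and 0.60 without library 2, and it was 1.12 on recentring. Without any 1 of the resistant OV-90 libraries its adjusted p was between 0.0907 and 0.115. In OVSAHO the change was 0.30 (adjusted p = 0.0337) and in EFO-21 0.22 (adjusted p = 0.0294), both with no overlap between groups. With 1 library left out, the adjusted p from limma reached 0.0976 in OVSAHO and 0.0839 in EFO-21. In Kuramochi the change was -0.30 (adjusted p = 0.0525), also with no overlap between groups.

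NQO1 (NCBI Gene ID 1728, chromosome 16 from 69740899 to 69760571, minus strand), a quinone reductase and a standard readout of NRF2, was ordered OV-90, EFO-21, Kuramochi, OVSAHO in parental cells, and each of the 6 pairs differed by the test. The parental libraries were at 11.22 and 11.35 in OV-90, 8.96, 9.02 and 9.11 in EFO-21, 7.63, 8.06 and 8.08 in Kuramochi and 6.58, 6.78 and 6.80 in OVSAHO. OV-90 was 2.26 above EFO-21 (adjusted p = 2.63e-07), EFO-21 1.11 above Kuramochi (adjusted p = 2.20e-05) and Kuramochi 1.21 above OVSAHO (adjusted p = 1.31e-05). The difference of EFO-21 from Kuramochi was under 2-fold on recentring (0.84) and without parental Kuramochi library 4 (0.96). With resistance NQO1 rose in Kuramochi to 8.92, 8.97 and 9.12, near its level in EFO-21, a change of 1.08 (SE 0.14, adjusted p = 0.00119) that was 0.94 without parental library 4. It did not pass the test with a 2-fold change in the other lines, where the OV-90 change was 0.20 (adjusted p = 0.0841), that of OVSAHO 0.22 (adjusted p = 0.0780) and that of EFO-21 -0.21 (adjusted p = 0.0363).

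HMOX1 (NCBI Gene ID 3162, chromosome 22 from 35776354 to 35790207, plus strand) encodes haem oxygenase 1, which opens the haem ring, and is switched on by NRF2 and held down by BACH1. Of the 9 genes other than NFE2L2 it was the one with its highest parental level in Kuramochi, at 7.40, 7.64 and 7.81, then in EFO-21 (6.71, 6.75 and 6.98), OVSAHO (5.66, 5.68 and 5.80) and OV-90 (5.03 and 5.93). OV-90 was below Kuramochi by 2.14 (adjusted p = 1.81e-05) and below EFO-21 by 1.33 (adjusted p = 0.000488), and OVSAHO below Kuramochi by 1.90 (adjusted p = 2.09e-05) and below EFO-21 by 1.10 (adjusted p = 0.000870). The differences from EFO-21 were the less stable, since that of OV-90 was 0.88 without parental library 3 and that of OVSAHO 0.85 on recentring. HMOX1 rose in resistant Kuramochi to 8.85, 8.93 and 8.95, a change of 1.29 (SE 0.11, adjusted p = 0.000259), held without any 1 library. In resistant OV-90 it was at 4.55, 4.60 and 4.71, below both parental libraries (-0.86, adjusted p = 0.0859), and the change passed the test only without parental library 3 (-1.31, adjusted p = 0.00792). The EFO-21 change was -0.67 (adjusted p = 0.00510), under 2-fold, and that of OVSAHO 0.35 (adjusted p = 0.0760).

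Thioredoxin reductase 1, the product of TXNRD1 (NCBI Gene ID 7296, chromosome 12 from 104609557 to 104744085, plus strand), keeps thioredoxin reduced at the expense of NADPH. Its gene rose in resistant OV-90 and Kuramochi. In Kuramochi it went from 8.06, 8.10 and 8.43 to 9.09, 9.31 and 9.45, a change of 1.09 (SE 0.14, adjusted p = 0.00109), held without any 1 library. In OV-90 the parental libraries, at 8.33 and 9.46, were the most uneven of the 10 genes, and the resistant ones were at 10.18, 10.28 and 10.39. The OV-90 change of 1.39 (SE 0.35, adjusted p = 0.0385) was 0.82 without parental library 2, and it did not pass the test without resistant library 13, 14 or 15 (adjusted p between 0.0995 and 0.123) or without a mean-variance trend (adjusted p = 0.0504). The EFO-21 change was -0.56 (SE 0.07, adjusted p = 0.00106), under 2-fold, with resistant libraries between 7.20 and 7.23 and parental ones between 7.65 and 7.85. In OVSAHO the groups overlapped between 7.14 and 7.34. In parental cells TXNRD1 was higher in OV-90 than in OVSAHO by 1.68 (adjusted p = 0.000257) and than in EFO-21 by 1.11 (adjusted p = 0.00355), the second under 2-fold without parental library 3 (0.54).

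SRXN1 (NCBI Gene ID 140809, chromosome 20 from 627259 to 633844, minus strand), which encodes sulfiredoxin, the enzyme that repairs over-oxidised peroxiredoxins, did not pass the test with a 2-fold change in any line. Its parental OV-90 libraries, at 10.69 and 11.42, were above all others, by 1.75 against Kuramochi (adjusted p = 1.45e-05), 1.31 against OVSAHO (adjusted p = 0.000114) and 1.17 against EFO-21 (adjusted p = 0.000239). The last 2 were under 2-fold without parental library 3 (0.94 and 0.81). In resistant OV-90 it was at 11.71, 11.80 and 11.87 (change 0.73, adjusted p = 0.0606), and without parental library 3 the change passed the test (1.10, adjusted p = 0.00354). In resistant Kuramochi it was at 8.55, 8.68 and 8.81, below the parental 9.22, 9.33 and 9.38 (change -0.63, SE 0.08, adjusted p = 0.00145), which was under 2-fold and opposite in sign to the change of TXNRD1 there. The OVSAHO and EFO-21 changes were -0.24 (adjusted p = 0.0717) and -0.17 (adjusted p = 0.333).

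The 2 members of glutathione supply moved little or in opposite directions between lines. GCLM (NCBI Gene ID 2730, chromosome 1 from 94350755 to 94375012, minus strand), the modifier subunit of the rate-limiting enzyme of glutathione synthesis, was steady among OV-90, Kuramochi and EFO-21, whose parental libraries lay between 7.92 and 8.31. OVSAHO, between 6.92 and 7.12, was below Kuramochi by 1.16 (adjusted p = 1.93e-06) and below EFO-21 by 1.26 (adjusted p = 8.47e-07). With resistance its largest change was 0.45 in OV-90 (SE 0.09, adjusted p = 0.0259), under 2-fold, and it was -0.25 in EFO-21 (adjusted p = 0.0123), -0.09 in Kuramochi (adjusted p = 0.457) and 0.09 in OVSAHO (adjusted p = 0.470). SLC7A11 (NCBI Gene ID 23657, chromosome 4 from 139085251 to 139163503, minus strand) encodes the light chain of the cystine importer xCT, which feeds glutathione synthesis and is also a target of ATF4, the factor of the amino acid stress response. Parental EFO-21 (6.69, 6.98 and 7.004) and OV-90 (6.69 and 6.75) were alike, Kuramochi was spread at 4.39, 4.59 and 5.75, and OVSAHO was low at 2.29, 2.33 and 2.77. The log2 difference from OVSAHO was 4.26 for OV-90 (adjusted p = 2.22e-06), 2.45 for Kuramochi (adjusted p = 6.89e-05) and 4.43 for EFO-21 (adjusted p = 7.19e-07), and Kuramochi was below OV-90 by 1.81 (adjusted p = 0.00105) and below EFO-21 by 1.98 (adjusted p = 0.000279).

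SLC7A11 fell in resistant Kuramochi, where NQO1, HMOX1, TXNRD1, AKR1C1 and AKR1C3 rose. The resistant libraries were at 3.15, 3.34 and 3.67, below all parental ones, a change of -1.52 (SE 0.39, adjusted p = 0.0202). Without resistant library 16 or 18 the adjusted p was 0.0636 or 0.0635. In OVSAHO the resistant libraries were at 3.20, 3.49 and 3.52, above the parental ones, and the change of 0.94 (SE 0.20, adjusted p = 0.0172) was just under 2-fold. It passed 2-fold without parental library 9 (1.09), without resistant library 19 (1.04) and on recentring (1.04). With other single libraries left out it was as low as 0.85, and over all such fits its adjusted p from limma reached 0.0613. In OV-90 and EFO-21 the groups overlapped, with changes of 0.09 (adjusted p = 0.609) and -0.02 (adjusted p = 0.904). Of 17 genes listed as ATF4 targets, SLC7A11 among them, 5 rose (29.4%) and 1 fell (5.88%) in Kuramochi, with a median change of 0.77, where 11.8% of all genes were higher and 10.6% lower with a median of -0.02. The fallen one was SLC7A11, and ATF3 (2.35), SLC7A5 (1.76), PSPH (1.68) and ASNS (1.48), a stress transcription factor, an amino acid transporter subunit and enzymes of serine and asparagine synthesis, were the 4 with the largest rises. The median of that list was -0.08 in OV-90 (0 higher, 2 lower), 0.38 in OVSAHO (2 higher, 0 lower) and 0.01 in EFO-21 (1 higher, 2 lower). Both OV-90 falls were lost without single resistant libraries, and both EFO-21 falls were under 2-fold on recentring and without single libraries.

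**Figure D2:**
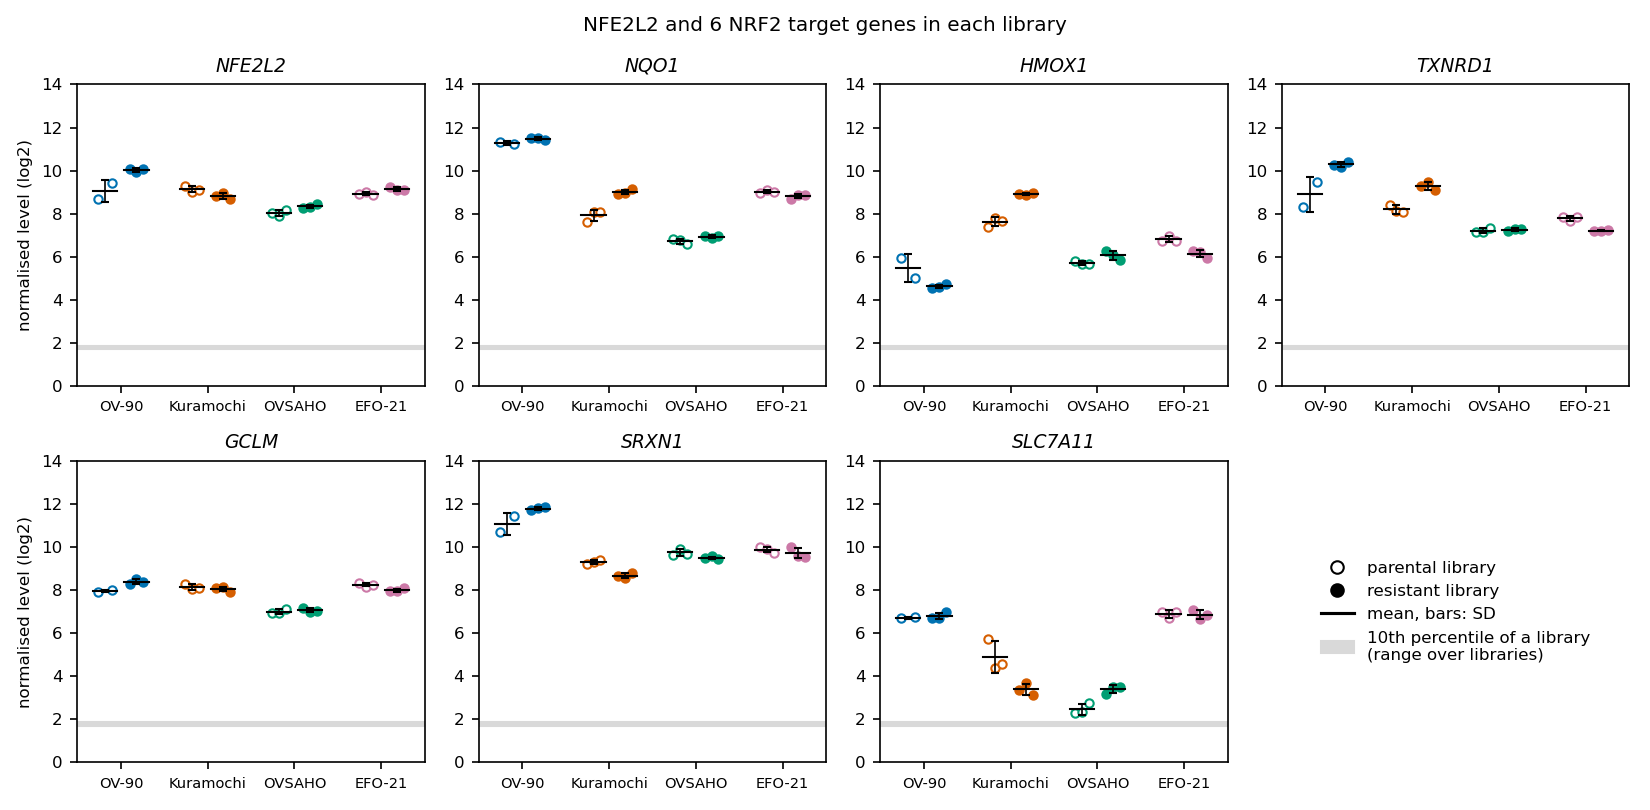
Log2 expression of NFE2L2 and 6 NRF2 target genes in each library, by cell line on the x axis, with parental libraries open and resistant libraries filled; lines and bars are the group mean and SD, and the grey band is the range of the 10th percentile of a library. NQO1, HMOX1 and TXNRD1 are higher and SLC7A11 lower in resistant Kuramochi, and the 2 parental OV-90 libraries are apart in TXNRD1, HMOX1, SRXN1 and NFE2L2.

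By line, 1 of the 10 genes rose and 3 fell in resistant OV-90, where 9.5% of all genes were higher and 6.56% lower. In Kuramochi 5 rose and 1 fell (11.8% of all genes higher, 10.6% lower). In OVSAHO 0 rose and 2 fell (3.93% higher, 3.83% lower), and in EFO-21 0 rose and 2 fell (7.11% higher, 7.15% lower). By limma 4 of the 10 genes in OVSAHO were higher and 3 lower with an unadjusted p under 0.05. In EFO-21 1 was higher and 7 were lower. In either direction 9589 of all 21658 genes had such a p in OVSAHO and 12039 in EFO-21. Of the counts by the full test, the rises in Kuramochi and the falls in OV-90, at 5 and 3 of 10 genes, were furthest from the shares of all genes. The 3 falls in OV-90 are AKR1C1, AKR1C2 and AKR1C3, which lie side by side with closely similar sequences and do not count as 3 separate genes. All 10 genes were chosen with earlier results of these data known, so that a distance from these shares is not a test. The median change of the 10 genes was 0.14 in OV-90, 0.96 in Kuramochi, 0.06 in OVSAHO and -0.41 in EFO-21, beside -0.06, -0.02, 0.00213 and 0.01 over all genes. Of the 40 pairs of gene and line, 6 were higher and 8 lower, and 7 of the 8 falls were in AKR1C genes. The number of genes counted as changed in OV-90 moved with the parental library left out, and that of EFO-21 was between 0 and 2 without single libraries. The share of all genes in such fits is not given here.

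**Figure D3:**
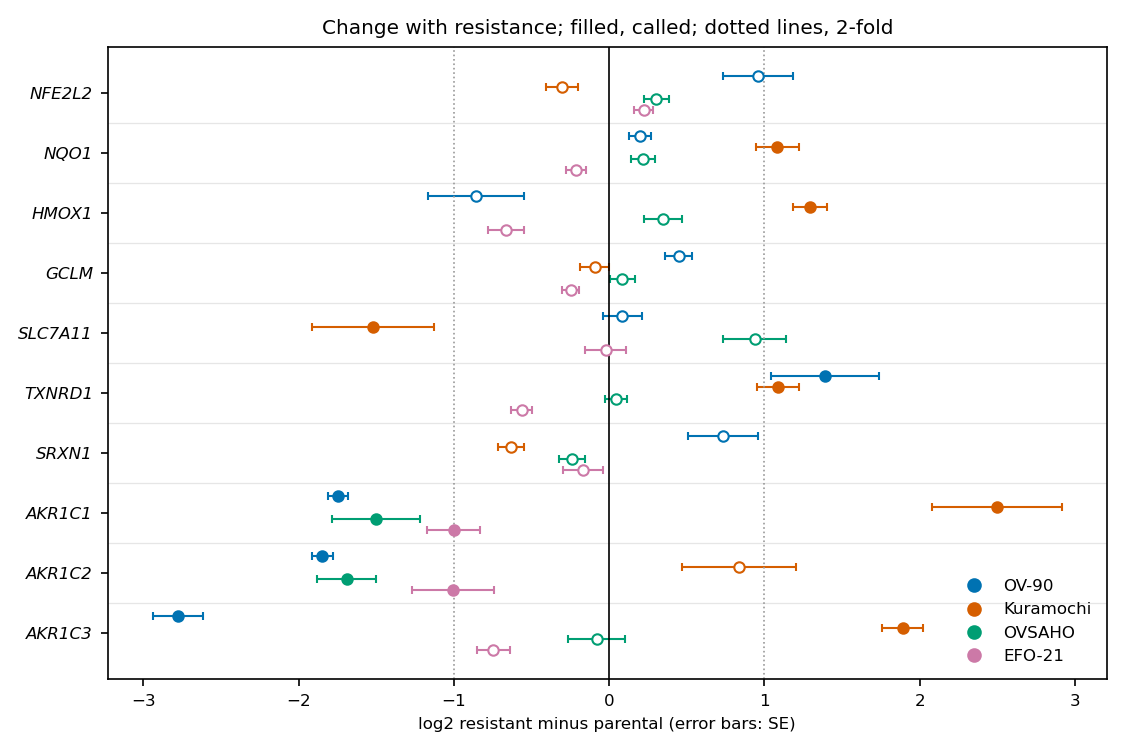
Log2 difference of resistant minus parental libraries for each of the 10 genes in each line, with the standard error from limma as bars; filled points passed the adjusted p and the 2-fold limit, and the dotted lines mark 2-fold. AKR1C1 is at -1.75, -1.50 and -1.002 in OV-90, OVSAHO and EFO-21 and at 2.50 in Kuramochi, and AKR1C3 is at -2.78 in OV-90 and 1.89 in Kuramochi.

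Markers of other cell types and of the epithelial state moved in the same comparisons. Of 8 epithelial ovarian markers, 5 fell in Kuramochi and 4 in OVSAHO, and 0 in OV-90 and EFO-21. The summed level of that list went from between 12.96 and 13.22 to between 12.004 and 12.07 in Kuramochi, and from between 12.47 and 12.53 to between 11.42 and 11.52 in OVSAHO. It went from between 14.29 and 14.52 to between 13.91 and 13.99 in OV-90, and from between 13.35 and 13.42 to between 12.82 and 12.87 in EFO-21. Of the erythroid genes HBA1, HBA2 and HBB all 3 fell in OVSAHO, where their summed level went from between 7.28 and 7.89 to between 3.24 and 4.22, and HBB was listed at 0 in parental EFO-21 and resistant Kuramochi. Of 4 leukocyte markers 2 fell in OVSAHO (between 5.60 and 6.70 to between 5.06 and 5.39), 1 in Kuramochi and 1 in EFO-21. Of 4 endothelial markers 1 rose and 2 fell in Kuramochi (between 5.93 and 6.46 to between 7.59 and 7.85), 1 fell in OV-90 (between 6.45 and 6.49 to between 4.07 and 4.16) and 1 in EFO-21, and 1 rose in OVSAHO. The part of these shifts in the changes of the 10 genes was not tested. All libraries are from cultured cancer cell lines, so these genes are not read here as counts of blood or vessel cells. In bulk libraries a change in some of the cells and a change in all of them cannot be told apart.

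The change of each line was then tested against the mean change of the other 3 lines, in a fit of all 23 libraries. In Kuramochi 6 of the 10 genes differed from the other lines (25.8% of all genes did), with AKR1C1 at 3.91 (SE 0.33, adjusted p = 1.52e-08), AKR1C3 at 3.09 (adjusted p = 2.43e-11), AKR1C2 at 2.35 (adjusted p = 3.33e-06), HMOX1 at 1.69, NQO1 at 1.02 and SLC7A11 at -1.85. That of NQO1 was under 2-fold on recentring (0.90) and without any 1 of 4 libraries (0.87 at the lowest). The AKR1C2 change of Kuramochi itself was 0.84 and did not pass the test. The mean that it is set against includes the OVSAHO fall into the lowest 10%. In OV-90 6 differed (21.6% of all genes), with AKR1C3 at -3.13 (SE 0.18, adjusted p = 4.18e-10), AKR1C1 at -1.74 (adjusted p = 0.000653), AKR1C2 at -1.23 and HMOX1 at -1.18, and with TXNRD1 at 1.20 and SRXN1 at 1.08. Those of HMOX1, TXNRD1 and SRXN1 were under 2-fold without parental OV-90 library 2 (-0.73, 0.63 and 0.71). In OVSAHO 3 differed (10.7% of all genes), SLC7A11 at 1.42 and AKR1C1 and AKR1C2 at -1.42 and -1.02, the last from resistant values in the lowest 10% and under 2-fold without any 1 of 9 libraries. In EFO-21 1 differed (17.2%), TXNRD1 at -1.40 (adjusted p = 4.00e-05). The 4 contrasts share libraries, since each line enters the mean that the others are set against. For OV-90 and OVSAHO that mean includes Kuramochi, where AKR1C1 was at 2.50 and AKR1C2 at 0.84. Within the lines AKR1C1 was at -1.75 in OV-90, -1.50 in OVSAHO and -1.002 in EFO-21. AKR1C2 was at -1.85, -1.69 and -1.005 in the same order, so that these falls are not particular to OV-90 or OVSAHO. Averaged over the 4 lines, 0 of the 10 genes passed the test with a 2-fold change by limma. Of all genes 3.22% were higher and 3.6% lower on that test. An unadjusted p under 0.05 was reached by 6 of the 10, and all 6 held after adjustment. Over all 21658 genes 13580 reached that unadjusted p and 12645 held after adjustment, so that 6 of 10 lies near the share of all genes. The largest average was that of AKR1C2, at -0.93 (SE 0.14, adjusted p = 1.39e-05), and the rise in Kuramochi and the falls elsewhere left AKR1C1 at -0.44. The AKR1C2 average includes the OVSAHO fall into the lowest 10%, which is not a measured fold change, and the EFO-21 call that was lost without single libraries.

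The other genes of the NRF2 pathway gave a mixed picture. Of 67 such genes listed by role, 66 were in the table. In OV-90 8 rose (12.1%) and 5 fell (7.58%), in Kuramochi 7 rose (10.6%) and 2 fell (3.03%), in OVSAHO 2 rose (3.03%) and 1 fell (1.52%), and in EFO-21 2 rose (3.03%) and 7 fell (10.6%). The rises in OV-90, Kuramochi and OVSAHO and the falls in OV-90 lie near the shares of all genes given above, while the falls in Kuramochi and OVSAHO and the rises in EFO-21 are below them and the falls in EFO-21 above. The medians of the list, 0.00398 in OV-90, 0.22 in Kuramochi, 0.04 in OVSAHO and 0.05 in EFO-21, were all small. The OV-90 count of 13 was between 1 and 22 with 1 library left out.

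In OV-90 the called genes were spread over several roles, with regulators (3 higher, 1 lower) and drug and carbonyl metabolism (1 higher, 3 lower) called in both directions. GCLC, the catalytic subunit of glutathione synthesis and partner of GCLM, rose by 1.44 (SE 0.21, adjusted p = 0.0169), and ME1, a cytosolic enzyme that makes NADPH, by 1.23 (SE 0.14, adjusted p = 0.0121). BACH1 and BACH2, repressors that compete with NRF2 for the same elements, rose by 1.49 (adjusted p = 0.0113) and 1.84 (adjusted p = 0.0132). The reductases CBR1 and CBR3, which act on carbonyl compounds as the AKR1C enzymes do, fell by 1.33 (SE 0.09, adjusted p = 0.00510) and 1.44 (SE 0.37, adjusted p = 0.0412) on the log2 scale. EPHX1, an epoxide hydrolase, and TRIM16, a ubiquitin ligase, fell by 1.05 and 1.17, the first under 2-fold on recentring. Of 14 glutathione genes 2 rose and 0 fell, with a median of -0.27. Only the CBR1 call was held when each library in turn was left out. The others named here were lost without resistant library 13, 14 or 15, with 2 libraries left in each group, and CBR3, EPHX1 and TRIM16 also without parental library 2.

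In Kuramochi CBR3 moved the other way and rose by 1.89 (SE 0.36, adjusted p = 0.00605). ABCG2 and ABCC3, which export drugs and conjugates, rose by 1.70 and 1.39, and GSTM4, a glutathione transferase, by 1.17, while MGST1, a membrane-bound transferase, fell by 2.57 (SE 0.19, adjusted p = 0.000130) and the exporter ABCC4 by 1.57. Of the 6 efflux transporters 3 rose and 1 fell. In EFO-21 ABCC3 rose by 1.26 and ABCG2 fell by 1.63, to a resistant mean of 0.81 that lies in the lowest 10%. ALDH3A1, GPX2 and MGST2, which handle aldehydes, peroxides and glutathione conjugates, fell by 1.51, 1.49 and 1.21 there (adjusted p = 0.00114, 0.00566 and 0.000233). In OVSAHO PANX2, a channel gene, rose by 1.65 and CES1, a carboxylesterase, fell by 2.58, to a mean of 0.34. The calls named so far for Kuramochi, OVSAHO and EFO-21 were held without any 1 library. BACH2 rose by 1.36 in OVSAHO (adjusted p = 0.00280), also held, and by 1.38 in EFO-21 (adjusted p = 0.0222), which was lost without parental library 10 or any 1 of the resistant libraries.

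**Figure D4:**
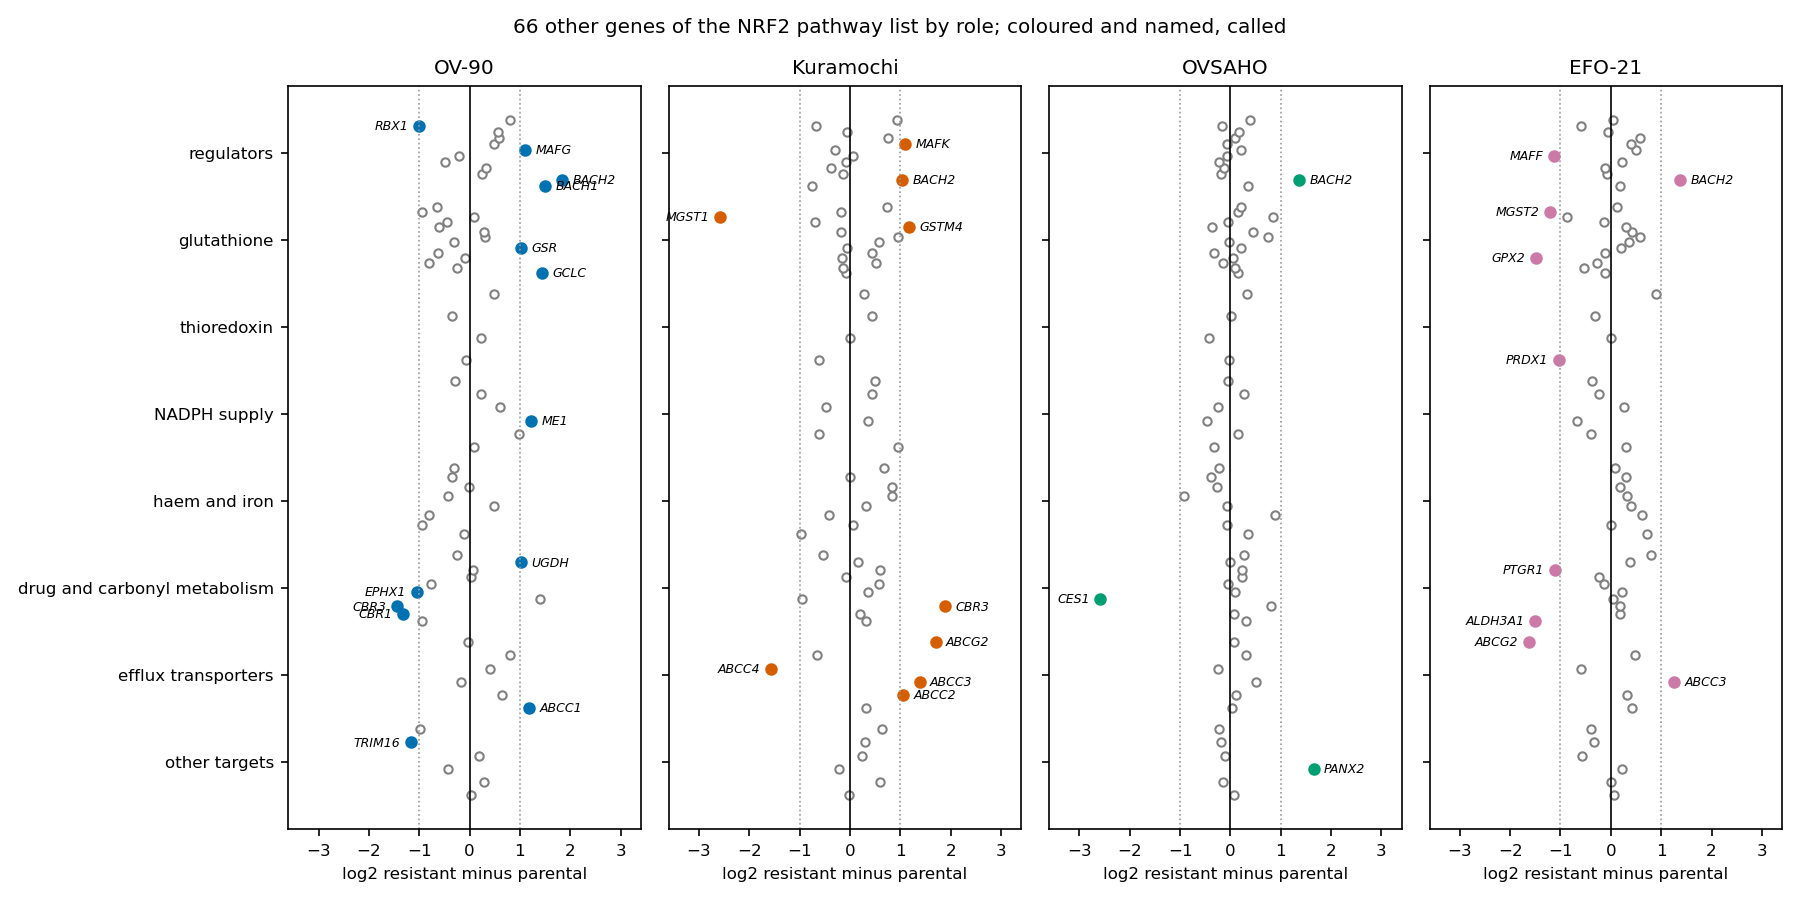
Log2 difference of resistant minus parental libraries for the 66 other genes of the NRF2 pathway list, 1 panel per line, grouped by role on the y axis; coloured and named points passed the adjusted p and the 2-fold limit, and dotted lines mark 2-fold. In OV-90 8 genes are higher and 5 lower, in Kuramochi 7 and 2, in OVSAHO 2 and 1, and in EFO-21 2 and 7.

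Of 14 other genes of the aldo-keto reductase family, 10 were in the table. AKR1B10, a reductase of retinal and other aldehydes that also follows NRF2 in many tumours, and its near copy AKR1B15 moved as AKR1C1 and AKR1C2 did in 3 lines. AKR1B10 fell in OV-90 from a mean of 11.63 to 10.13 (-1.50, SE 0.07, adjusted p = 0.00366), in OVSAHO from 2.88 to 1.53 (-1.35, adjusted p = 0.0103) and in EFO-21 from 2.50 to 0.96 (-1.54, adjusted p = 0.000651), and was -0.39 in Kuramochi (adjusted p = 0.186). The OV-90 level is far above that of the other lines, and the resistant means of OVSAHO and EFO-21 lie in the lowest 10% of values. AKR1B15 fell in OV-90 from 6.92 to 4.48 (-2.44, adjusted p = 0.0120), a call lost without resistant library 14 or 15. It also fell in OVSAHO (-1.64) and EFO-21 (-1.45), from values near to values in the lowest 10%, and both calls were lost without single libraries. Reads of the copies may not be told apart. AKR1B1, the aldose reductase, fell in EFO-21 (-1.06, adjusted p = 7.05e-05; under 2-fold on recentring), and KCNAB3, a potassium channel subunit of the family, rose in OV-90 (1.06) and fell in EFO-21 (-1.13), the first lost without parental library 2 or any 1 of the resistant libraries. In Kuramochi 0 of the 10 passed the test. An unadjusted p under 0.05 by limma was reached by 5 of the 10, beside 11806 of all 21658 genes, so that the count is not above the share of all genes.

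The AKR1C1 to AKR1C3 span covers 144.4 kb of chromosome 10 (from 5005445 to 5149878), and 14 other protein-coding genes of the table start within 2 Mb of it. In OV-90, where the AKR1C genes fell, 3 of the 14 rose and 2 fell. PFKFB3 (2.20), KLF6 (1.85) and TASOR2 (1.83) rose and TUBAL3 (-1.60) and PRKCQ (-1.33) fell, and each of these calls was lost without any 1 of the resistant libraries. In Kuramochi IL15RA (1.86) and KLF6 (1.22) rose and PRKCQ (-4.28) fell, to a mean of 0.28 in the lowest 10% of values, and these calls were held without any 1 library. In OVSAHO and EFO-21 0 of the 14 passed the test, where 10 and 6 had an unadjusted p under 0.05 by limma. Of all 21658 genes 9589 in OVSAHO and 12039 in EFO-21 had such a p. The median over all genes was 0.00213 in OVSAHO and 0.01 in EFO-21, and the share of all genes below 0 is not given here. Most of the neighbours were below 0 in these lines. In OVSAHO 11 of 14 were (7 past the adjusted p, median -0.20), and in EFO-21 12 of 14 (5 past the adjusted p, median -0.09). Of all genes 7203 in OVSAHO and 10478 in EFO-21 were past the adjusted p in either direction. Both EFO-21 counts of neighbours past a p limit lie below the share of all genes. The EFO-21 median is smaller than the 0.12 that recentring adds, so that its sign turns. In OVSAHO recentring adds 0.11, which brings the median of -0.20 nearer to 0. Whether these genes moved together with the AKR1C genes was not tested. In OV-90 7 of the 14 were above 0 and 7 below (median 0.00257), and in Kuramochi 9 above and 5 below (median 0.09).

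AKR1C1 and NQO1 were compared with all other genes for likeness over the 8 group means, among 12631 genes that reached the median level of the table in at least 1 group. For AKR1C1 the closest genes by Pearson's r were CCL26 (0.995), AKR1C2 (0.993) and RRBP1 (0.988). CCL26, a chemokine gene, went from a mean of 14.32 in parental to 11.06 in resistant OV-90 and lay between 1.81 and 5.60 in the other 6 groups, so that these correlations rest on OV-90 against the rest. For NQO1 they were RPS27L (0.998), RAB11A (0.991) and LACTB (0.986), and RPS27L ranged from 8.88 in resistant OVSAHO to 11.43 in resistant OV-90. The points share the normalisation over libraries and come in pairs from the same line.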

How the data were processed

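Stranded mRNA libraries (TruSeq) were sequenced on a HiSeq4000 as 150-base pairs. Alignment by the authors was to GRCh37/hg19, exons with few reads were left out, and a gene's value came from a robust linear model (16448 genes) or from a mean of log2 exon values (5210 genes). The deposited values are log2 expression, quantile normalised by the authors over the libraries. Columns name line and resistance but no replicate number, and library numbers are used as names. No counts are given, so depth is unknown, and quantile normalisation removes any change that most genes share. Symbols came from RefSeq (GRCh38.p14, names only) for 20745 of 21658 genes and positions from GENCODE lifted to GRCh37 for 19358. Sequences were read from GRCh37.

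Groups were compared with limma (3.58.1, R 4.3.3; lmFit, eBayes with a mean-variance trend, two-sided) on the deposited log2 values, with no filter and no pseudocount, within each line, among parental lines, and over all 23 libraries for differences between lines. The code was tested on simulated data. Alternatives were no trend, robust eBayes, 1 fit of all libraries, a filter at the 25th percentile, recentring on 11 reference genes, fold limits of 1.5 and none, and leaving out each library. An exact permutation test was not used, since 3 libraries against 3 cannot go below 0.1.

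The 10 genes and all lists were chosen with earlier results of these data known. Beyond the 10 genes, the text names per line and list the 4 highest and 4 lowest changed genes, changed genes within 2 Mb of the AKR1C span, and the 3 genes most like AKR1C1 and NQO1.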

Additional observations from a re-analysis of the deposited data

Results flagged for a closer look

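The changes that differed between lines are listed here for a closer look, each as the log2 change of 1 line minus the mean change of the other 3 (limma, 23 libraries, adjusted over all genes, at least 2-fold). In Kuramochi these were AKR1C1 (3.91), AKR1C3 (3.09), AKR1C2 (2.35), HMOX1 (1.69) and NQO1 (1.02), all more positive than elsewhere, and SLC7A11 (-1.85). In OV-90 they were AKR1C3 (-3.13), AKR1C1 (-1.74), AKR1C2 (-1.23) and HMOX1 (-1.18), and TXNRD1 (1.2) and SRXN1 (1.08) on the positive side. In OVSAHO they were SLC7A11 (1.42), AKR1C1 (-1.42) and AKR1C2 (-1.02), the last from resistant values in the lowest 10%, and in EFO-21 TXNRD1 (-1.4). The mean set against OV-90 and OVSAHO includes Kuramochi, whose AKR1C1 and AKR1C2 changes had the opposite sign. AKR1C1 and AKR1C2 fell in OV-90, OVSAHO and EFO-21 alike, so that their falls are not particular to 1 of these lines. AKR1C1, AKR1C2 and AKR1C3 in Kuramochi and OV-90 kept their calls without any 1 library. The AKR1C2 change of Kuramochi itself, at 0.84, did not pass the test. NQO1 in Kuramochi was between 0.87 and 0.996 without parental Kuramochi library 4, parental OV-90 library 2, or resistant library 18 or 22, and on recentring it was 0.90. AKR1C2 in OVSAHO was under 2-fold without any 1 of 9 libraries, between -0.91 and -0.998. No group had enough libraries for a test of single outlying samples.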

How the results depend on the processing

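No paired analysis was possible because the columns of the table carry no replicate numbers. With all libraries kept, the number of the 10 genes counted as changed moved by over 1.5 times at other fold limits and, in EFO-21, on recentring. With no fold limit they were 4 in OVSAHO and 8 in EFO-21, and at 1.5-fold 4 in EFO-21. On recentring on reference genes EFO-21 had 0. For the 66 pathway genes the numbers at 1.5-fold and with no limit were 25 and 31 in OV-90, 27 and 40 in Kuramochi, 7 and 22 in OVSAHO and 18 and 49 in EFO-21. Between parental Kuramochi and EFO-21 they were 5 and 6 of the 10 genes. For differences between lines they were 3 and 5 in EFO-21, and with no limit 5 in OVSAHO. For the average over lines, added after the data were seen, they were 1 and 6. With no limit the numbers over all 21658 genes were 7791 in OV-90, 10158 in Kuramochi, 7203 in OVSAHO and 10478 in EFO-21. They were 14531 between parental Kuramochi and EFO-21, 9131 and 6573 for the differences in EFO-21 and OVSAHO, and 12645 for the average. The shares of all genes at 1.5-fold and on recentring are not given here.

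With 1 library left out, the 10 genes gave 3 to 7 in OV-90, 5 to 7 in Kuramochi, 2 to 3 in OVSAHO and 0 to 2 in EFO-21, and the pathway list gave 1 to 22, 8 to 11, 3 to 3 and 6 to 9. Parental pairs gave 6 to 7 (OV-90 and Kuramochi), 6 to 9 (OV-90 and OVSAHO), 3 to 6 (OV-90 and EFO-21, the lowest without parental library 3), 6 to 8 (Kuramochi and OVSAHO), 1 to 4 (Kuramochi and EFO-21, the lowest without parental library 4) and 5 to 5 (OVSAHO and EFO-21). Differences between lines gave 3 to 7 in OV-90 (the lowest without parental library 2), 5 to 6 in Kuramochi, 2 to 3 in OVSAHO and 1 to 2 in EFO-21. The average gave 0 to 0. The share of all genes is not given for these fits, so that the counts are not a result about the 10 genes or the pathway list.

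Signs turned only where the change was near 0. With 1 library left out, SLC7A11 in OV-90 was between -0.0024 and 0.13, AKR1C3 in OVSAHO between -0.20 and 0.019, and SLC7A11 in EFO-21 between -0.13 and 0.077, and on recentring the last 2 were 0.025 and 0.10. The cause was not tested. Of 51 values of other named genes, 0 changed sign. A left-out OV-90 library leaves 1 parental library or 2 resistant ones. The lone library is then assumed to vary like the others.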
